A study of Mus musculus with 16 samples.

Results

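Expression of 9 genes for costimulatory receptors of T cells was followed in donor T cells of mice in which graft-versus-host disease strikes the ovary. With earlier results of these data known, these genes and the gene lists further below were chosen by name. The genes were Cd28, Cd27, Tnfrsf4, Tnfrsf9, Tnfrsf18, Tnfrsf1b, Cd226, Cd2 and Cd5, out of 20972 gene symbols that the arrays could be matched to. They are covered by 12 probes, and where a gene had 2 probes (Cd2, Cd27 and Tnfrsf9) the probe with the higher mean over all arrays stood for it. Every one of these 12 probes was well above background on all 16 arrays, so all 9 genes entered the tests. One-colour Agilent arrays were hybridised with Cy3-labelled cRNA, 1 array per sample.

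The 6 groups, all from female mice with a C57BL/6 strain background, were allogeneic ovarian CD8 cells (n = 4), allogeneic splenic CD8 cells (n = 3), syngeneic splenic CD8 cells (n = 3), allogeneic ovarian CD4 cells (2 arrays), splenic CD4 cells after allogeneic transplantation (2 arrays) and splenic CD4 cells after syngeneic transplantation (2 arrays). All were donor cells taken after a transplant of haematopoietic stem cells, from a genetically different donor in the allogeneic groups and from a matched one in the syngeneic groups, so there was no group without a transplant and no syngeneic ovarian group. Cells were sorted in 2 rounds. The labels give neither the time after transplantation nor whether samples came from separate animals, so p-values measure the spread between these samples, which may be technical.

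T cells receive a signal through the antigen receptor and further signals from costimulatory receptors, which tune activation, survival and effector function. Receptors of the immunoglobulin superfamily such as CD28, which binds CD80 and CD86 on antigen-presenting cells, and CD2, which binds CD48 in mice, act alongside the antigen receptor. CD226 shares ligands with the inhibitory receptors encoded by Tigit and Cd96, and CD5, a scavenger-receptor family member, is known mainly for damping antigen-receptor signals. Receptors of the TNF receptor superfamily, among them CD27, OX40 (Tnfrsf4), CD137 (Tnfrsf9), GITR (Tnfrsf18) and the type-II TNF receptor (Tnfrsf1b), signal through TRAF adaptors to NF-kappaB. Several of this family are known from activated T cells and from regulatory T cells. In graft-versus-host disease, blockade or triggering of such receptors has long been studied as a means to change donor T-cell reactivity.

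Levels are log2 signals minus the array's own 75th percentile, so 0 is the 75th percentile and a difference of 1 is a doubling of signal. Levels of different genes come from different probes and were not set against each other. The 75th percentile of the raw signal ran between 67.6 and 450 arbitrary units, lowest on the replicate 2 arrays of ovarian and allogeneic splenic CD4 cells, 41.8% to 59.4% of spots were well above background, and 0 spots were saturated. Each of the 2 slides held arrays of all 6 groups. The sort markers followed the labels: Cd8a had levels of 4.71 to 5.82 on CD8 arrays and was not well above background on any CD4 array, and Cd4 had levels of 1.42 to 2.45 on CD8 arrays against 4.48 to 5.56 on CD4 arrays. Cd8b1 had 5.36 to 6.74 on CD8 arrays and -2.82 to 0.17 on CD4 arrays. It was well above background on 1 of 2 ovarian CD4 arrays and on all splenic CD4 arrays. In allogeneic against syngeneic spleen Cd8b1 was lower in CD4 cells (-1.80 ± 0.30, limma adjusted p = 0.00208). It was also lower in CD8 cells (-0.79 ± 0.25, limma adjusted p = 0.0239). Transcripts of other cells were present. The summed level of 6 B-cell markers, in multiples of the 75th percentile, was 1.20 to 2.19 in ovarian CD8 cells, 2.68 to 4.77 in allogeneic splenic CD8 cells and 14.4 to 23.3 in syngeneic splenic CD8 cells. In CD4 cells it was 1.52 to 1.74, 8.69 to 9.32 and 32.7 to 69.6 in the same order of tissue and transplant. In ovarian over splenic cells, 3 of 7 measured gonadal markers were called higher in CD8 cells and 2 of 7 in CD4 cells. These are 42.9% and 28.6%, where 0.53% and 0.906% of all features were called in either direction.

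**Figure D1:**
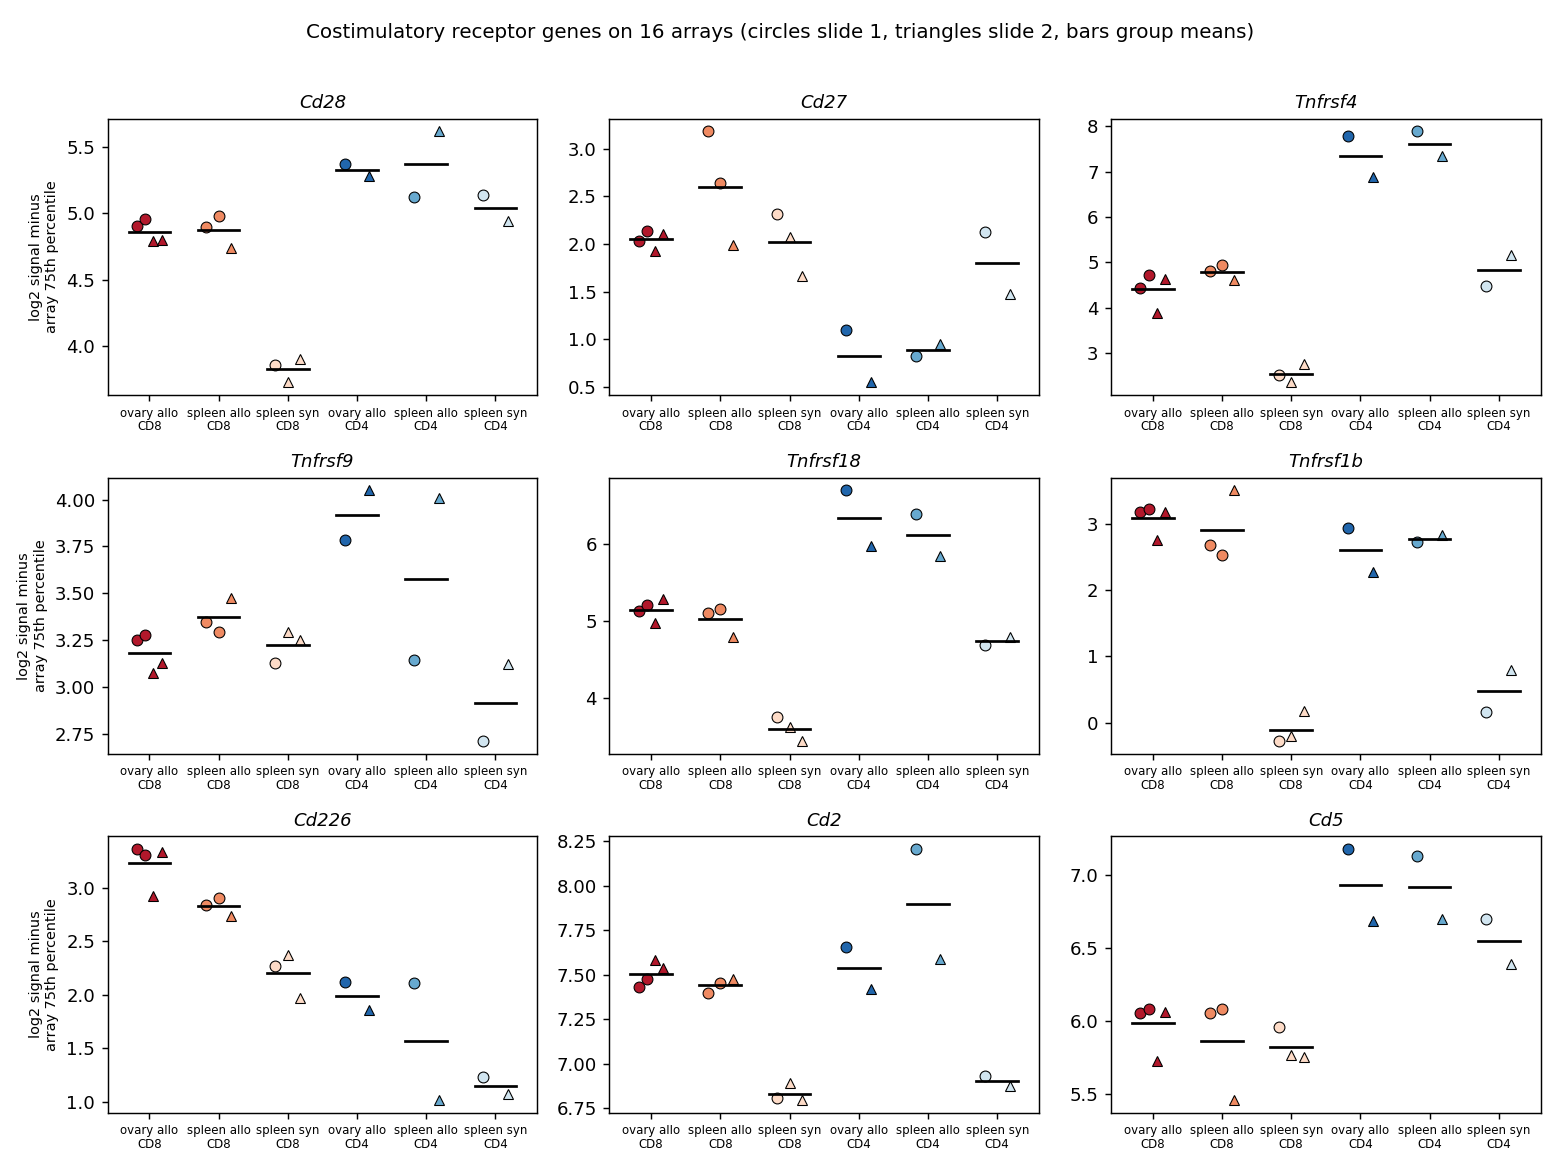
Level of each of the 9 receptor genes (log2 signal minus the array's 75th percentile, y axis, a scale per panel) on all 16 arrays by group (x axis). Circles are arrays of slide 1, triangles arrays of slide 2 and bars group means. Tnfrsf4, Tnfrsf18 and Tnfrsf1b were higher in every allogeneic array than in any syngeneic array of the same subset, and none of these 3 genes passed the test between ovary and spleen.

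The comparison of allogeneic with syngeneic spleen asks how an alloreactive transplant changes donor T cells. In CD8 cells, 5 of the 9 receptor genes rose and 0 fell by limma's moderated test with Benjamini-Hochberg adjustment over all 22836 features (adjusted p under 0.05). Of all features, 18.8% were called higher and 19.6% lower in that comparison. In CD4 cells 4 of 9 rose and 0 fell, with 10.4% of all features called higher and 5.7% lower. Tnfrsf4, Tnfrsf18, Tnfrsf1b and Cd2 were called in both subsets. The median difference of the 9 genes was 0.62 in CD8 cells, where the median over all features was -0.16, and 0.66 in CD4 cells, where it was 0.04. These are bulk samples, in which more cells carrying a transcript and more transcript per cell cannot be told apart.

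Tnfrsf1b, which encodes the TNF receptor found mainly on immune cells, had the largest difference of the 9 genes in CD8 cells. Its levels were 2.68, 2.53 and 3.51 in allogeneic splenic CD8 cells, against -0.28, -0.21 and 0.17 in syngeneic splenic CD8 cells. The 2 groups were far apart on every array. The difference was 3.01 ± 0.28 (SE), an 8.06-fold higher signal (limma adjusted p = 4.55e-06). In CD4 cells, levels were 2.72 and 2.82 in allogeneic spleen, against 0.15 and 0.80 in syngeneic spleen, a difference of 2.30 ± 0.34 (limma adjusted p = 0.000944). Macrophages also express this gene. The summed level of 8 macrophage markers was 53.6 to 84.7 in allogeneic splenic CD4 cells and 24.0 to 41.1 in syngeneic ones. Of these markers 1 of 8 was called higher, or 12.5%, near the 10.4% of all features. In CD8 cells that sum was 5.79 to 7.27 in allogeneic spleen and 8.49 to 14.8 in syngeneic spleen. There 2 of 8 were called lower, or 25%, where 19.6% of all features were. The part of macrophages in the Tnfrsf1b difference was not tested.

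Tnfrsf4 encodes OX40, a receptor induced after antigen encounter that supports survival and memory, chiefly of CD4 cells. Its levels were 4.82, 4.94 and 4.60 in allogeneic splenic CD8 cells, against 2.51, 2.35 and 2.76 in syngeneic splenic CD8 cells (difference 2.25 ± 0.29, limma adjusted p = 7.06e-05). In CD4 cells it had 7.89 and 7.33 in allogeneic spleen, against 4.49 and 5.16 in syngeneic spleen (2.79 ± 0.35, limma adjusted p = 0.000375). Signals were thus 4.75-fold higher in allogeneic CD8 cells and 6.90-fold higher in allogeneic CD4 cells, with no overlap between arrays.

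Tnfrsf18, the neighbouring gene of Tnfrsf4 on the chromosome, encodes GITR. Its levels were 5.10, 5.16 and 4.79 in allogeneic splenic CD8 cells, against 3.75, 3.62 and 3.44 in syngeneic splenic CD8 cells (1.42 ± 0.20, limma adjusted p = 0.000172). In CD4 cells they were 6.39 and 5.85 in allogeneic spleen, against 4.69 and 4.80 in syngeneic spleen (1.38 ± 0.25, limma adjusted p = 0.00335). The rise was 2.67-fold in CD8 cells and 2.60-fold in CD4 cells.

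Regulatory T cells are known to carry GITR, OX40 and the type-II TNF receptor. Foxp3, their defining transcription factor, rose in allogeneic splenic CD8 cells, with levels of 0.35, -0.59 and -0.29 against -2.48, -2.36 and -2.29 in syngeneic splenic CD8 cells (2.20 ± 0.36, limma adjusted p = 0.000488). In CD4 cells Foxp3 had 3.50 and 2.97 in allogeneic spleen and 2.06 and 2.34 in syngeneic spleen, which did not pass the test (1.03 ± 0.45, limma adjusted p = 0.138). All 5 regulatory T-cell markers were measured, and 4 were called higher in CD8 cells and 2 in CD4 cells. Of all features 18.8% and 10.4% were called higher, against 80% and 40% of these 5 markers. Their summed level was 10.3 to 17.4 in allogeneic and 0.991 to 1.37 in syngeneic splenic CD8 cells, and 42.1 to 46.8 in allogeneic and 23.0 to 33.7 in syngeneic splenic CD4 cells. The part of such cells in the receptor differences was not tested.

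Promoter windows are shown for the TNF receptor genes that rose together, and for Tnfrsf9, whose probes disagreed. They are the 250 bases before a RefSeq start on assembly GRCm38.p6, read 5′ to 3′ on the gene's strand. Capitals mark the only kappaB-like (GGGA, any 4 bases, then CC) and AP-1-like (TGANTCA) matches found on either strand in these windows, which lie before the second Tnfrsf9 start. The Tnfrsf4 window is not shown because it overlaps a neighbouring gene's end.
Tnfrsf1b, chr4:145246871-145247120, minus strand: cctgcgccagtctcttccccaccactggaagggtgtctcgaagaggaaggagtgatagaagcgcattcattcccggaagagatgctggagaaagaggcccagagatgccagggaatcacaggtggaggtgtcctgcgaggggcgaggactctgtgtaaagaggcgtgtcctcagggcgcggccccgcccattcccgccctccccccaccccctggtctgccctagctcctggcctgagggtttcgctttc
Tnfrsf18, chr4:156026072-156026321, plus strand: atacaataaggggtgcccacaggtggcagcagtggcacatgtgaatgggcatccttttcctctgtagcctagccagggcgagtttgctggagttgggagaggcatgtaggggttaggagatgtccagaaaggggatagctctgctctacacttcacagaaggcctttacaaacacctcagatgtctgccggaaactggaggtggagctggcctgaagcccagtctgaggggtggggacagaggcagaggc
Tnfrsf9, start 1, chr4:150919905-150920154, plus strand: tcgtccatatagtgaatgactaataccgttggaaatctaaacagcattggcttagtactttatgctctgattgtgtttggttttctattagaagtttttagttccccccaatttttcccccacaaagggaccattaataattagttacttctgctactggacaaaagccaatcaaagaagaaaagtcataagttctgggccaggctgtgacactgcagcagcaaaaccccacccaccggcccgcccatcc
Tnfrsf9, start 2, chr4:150927749-150927998, plus strand: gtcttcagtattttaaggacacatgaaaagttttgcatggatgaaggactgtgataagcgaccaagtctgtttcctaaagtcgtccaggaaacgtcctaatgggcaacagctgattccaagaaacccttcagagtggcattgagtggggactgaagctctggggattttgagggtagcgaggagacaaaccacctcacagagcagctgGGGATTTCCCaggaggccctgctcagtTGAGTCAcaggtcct
The kappaB-like match lies 42 to 33 bases before that start and the AP-1-like match 15 to 9 bases before it. Among all 32851 RefSeq promoter windows of this length, 17.6% held a kappaB-like and 6.75% an AP-1-like match. The Tnfrsf1b window held 2 matches to the Sp1-like letters GGGCGG, found in 32.7% of windows, and the window before Tnfrsf9 start 1 held 1. Letters TGGAAA, an NFAT-like match, stand once in the window before Tnfrsf9 start 1 and in 18.6% of all windows. Windows were taken for 6 of the 9 genes: none was found for Cd28 and Cd2, and Cd226 was left out by choice.

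Tnfrsf9 encodes CD137, a receptor induced on activated T cells, above all CD8 cells. The probe with the higher mean showed levels of 3.35, 3.29 and 3.47 in allogeneic splenic CD8 cells, against 3.13, 3.29 and 3.25 in syngeneic splenic CD8 cells. The difference of 0.15 ± 0.20 did not pass the test (limma adjusted p = 0.582), and was -0.01 after quantile normalization. The other probe, assigned to the same transcript accession and tested after its values were seen, showed 2.77, 2.61 and 2.74 in allogeneic splenic CD8 cells, against -2.50, -2.86 and -2.75 in syngeneic splenic CD8 cells. That is a difference of 5.41 ± 0.28, or 42.4-fold (limma adjusted p = 5.03e-08), larger than the change of any of the 9 probes chosen by the rule. In CD4 cells this other probe had 0.995 and 1.09 in allogeneic spleen, against -1.57 and -0.36 in syngeneic spleen (2.01 ± 0.35, limma adjusted p = 0.00253). The higher probe there had 3.14 and 4.01 in allogeneic spleen, against 2.71 and 3.12 in syngeneic spleen (0.66 ± 0.24, limma adjusted p = 0.0851). No direction is therefore given for Tnfrsf9 as a gene in CD8 cells: 1 probe rose and the other did not pass the test.

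**Figure D2:**
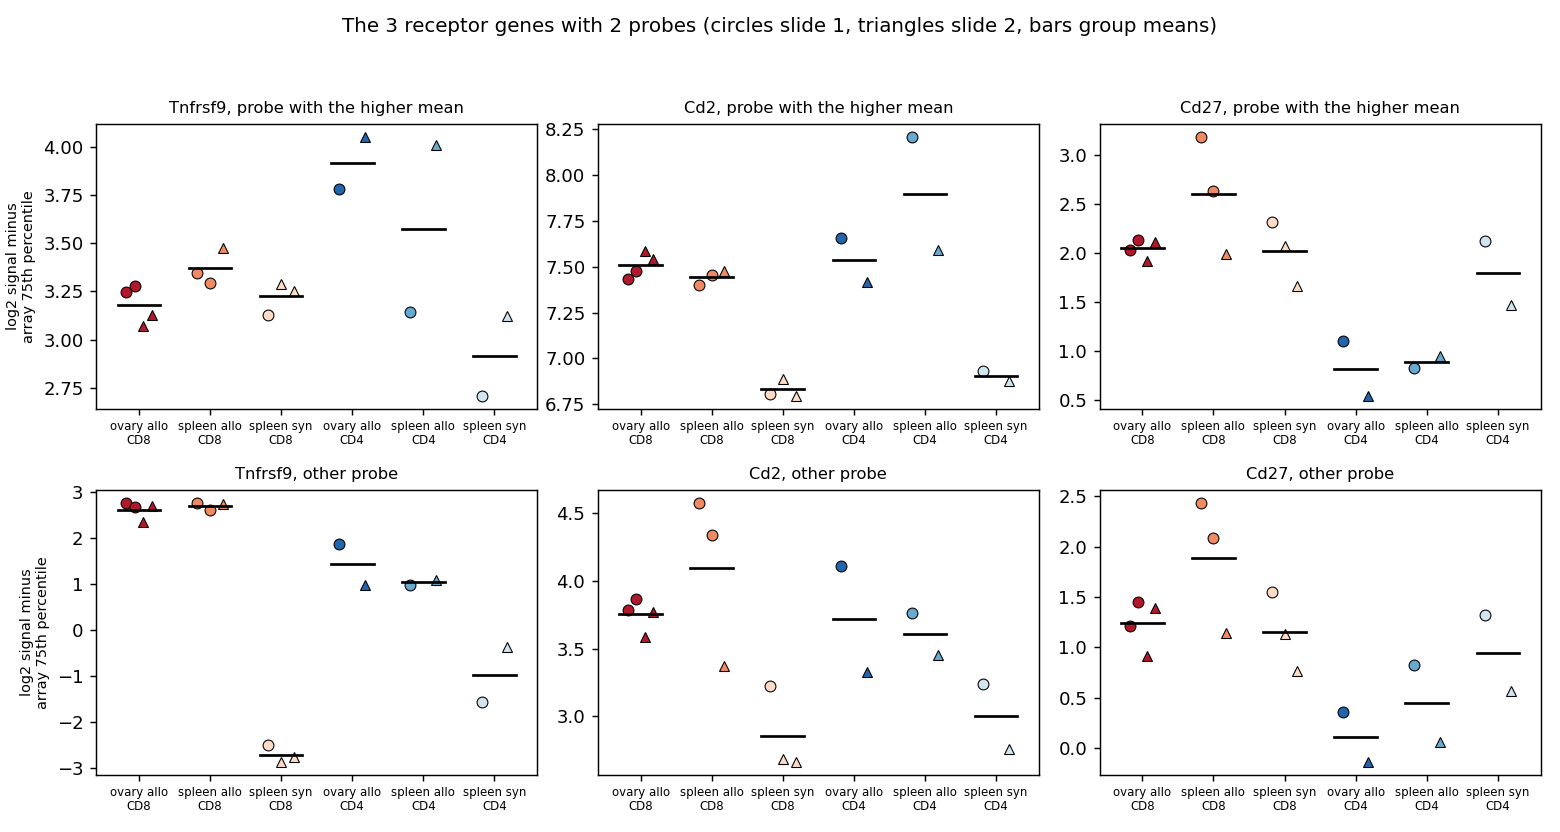
Levels (log2 signal minus the array's 75th percentile, y axis, a scale per panel) of both probes of Tnfrsf9, Cd2 and Cd27 by group (x axis). Top, the probe with the higher mean. Bottom, the other probe. Circles are slide 1, triangles slide 2, bars group means. For Tnfrsf9 the other probe lies between 2.61 and 2.77 in allogeneic splenic CD8 cells and between -2.86 and -2.50 in syngeneic splenic CD8 cells, a gap the probe with the higher mean does not have.

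Among the receptors of the immunoglobulin superfamily, Cd28 rose in CD8 cells. Its levels were 4.89, 4.98 and 4.74 in allogeneic splenic CD8 cells, against 3.86, 3.73 and 3.91 in syngeneic splenic CD8 cells (1.04 ± 0.14, limma adjusted p = 0.000116), a 2.06-fold higher signal with no overlap. In CD4 cells it had 5.12 and 5.62 in allogeneic spleen, against 5.13 and 4.94 in syngeneic spleen, overlapping levels (0.33 ± 0.17, limma adjusted p = 0.224).

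Cd2, the adhesion and costimulatory receptor for CD48, had 7.40, 7.45 and 7.48 in allogeneic splenic CD8 cells, against 6.81, 6.89 and 6.80 in syngeneic splenic CD8 cells (0.61 ± 0.15, limma adjusted p = 0.00638). In CD4 cells it had 8.21 and 7.59 in allogeneic spleen, against 6.93 and 6.88 in syngeneic spleen (0.99 ± 0.18, limma adjusted p = 0.00359). The arrays of each pair of groups did not overlap. The other Cd2 probe rose in CD8 cells too (1.24 ± 0.31, limma adjusted p = 0.00682), whereas in CD4 cells its difference of 0.61 ± 0.37 did not pass the test (limma adjusted p = 0.303).

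The 3 remaining genes did not pass the test in either subset in the fit used throughout, which leaves out the slide. Cd226 had 2.84, 2.91 and 2.74 in allogeneic splenic CD8 cells, against 2.27, 2.37 and 1.97 in syngeneic splenic CD8 cells. Those arrays did not overlap, but the difference of 0.62 ± 0.24 stood just outside the threshold (limma adjusted p = 0.0557). Several alternative settings put it inside the threshold. Among them were array weights (0.61, limma adjusted p = 0.0013) and normexp background correction with quantile normalization (0.52, limma adjusted p = 0.00799). With only the 2 splenic CD8 groups fitted it passed too (limma adjusted p = 0.0264), but with the slide as a block it did not. Cd27, the receptor for CD70, had 3.18, 2.64 and 1.99 in allogeneic splenic CD8 cells, against 2.32, 2.07 and 1.66 in syngeneic splenic CD8 cells (0.59 ± 0.29, limma adjusted p = 0.124). In CD4 cells Cd27 had 0.83 and 0.95 in allogeneic spleen, against 2.12 and 1.47 in syngeneic spleen (-0.91 ± 0.35, limma adjusted p = 0.1), arrays that did not overlap. With the slide as a block, which both slides allow since each held all 6 groups, the chosen Cd27 probe passed the test in CD4 cells (limma adjusted p = 0.0379). So did the chosen Tnfrsf9 probe (0.66, limma adjusted p = 0.0472). The other Cd27 probe gave -0.50 ± 0.43 in CD4 cells without the slide (limma adjusted p = 0.478), with overlapping arrays. Cd5 differed by 0.04 ± 0.21 in CD8 cells and 0.37 ± 0.25 in CD4 cells, and Cd226 in CD4 cells by 0.41 ± 0.29. Without allogeneic splenic CD8 replicate 3, Cd27 passed the test in CD8 cells (0.89, limma adjusted p = 0.0185). In CD4 cells Cd28 (0.58, limma adjusted p = 0.0383) and Tnfrsf9 (1.10, limma adjusted p = 0.00544) passed without allogeneic replicate 1, and Cd226 (0.96, limma adjusted p = 0.0131) without allogeneic replicate 2. The CD4 calls rest on the spread shared over all 6 groups: with only the 2 CD4 groups fitted, 0 of 9 were called. Slide 2 held 1 array of each CD4 group. On it alone, the CD4 differences were 2.17 for Tnfrsf4, 1.05 for Tnfrsf18, 2.03 for Tnfrsf1b and 0.71 for Cd2.

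**Figure D3:**
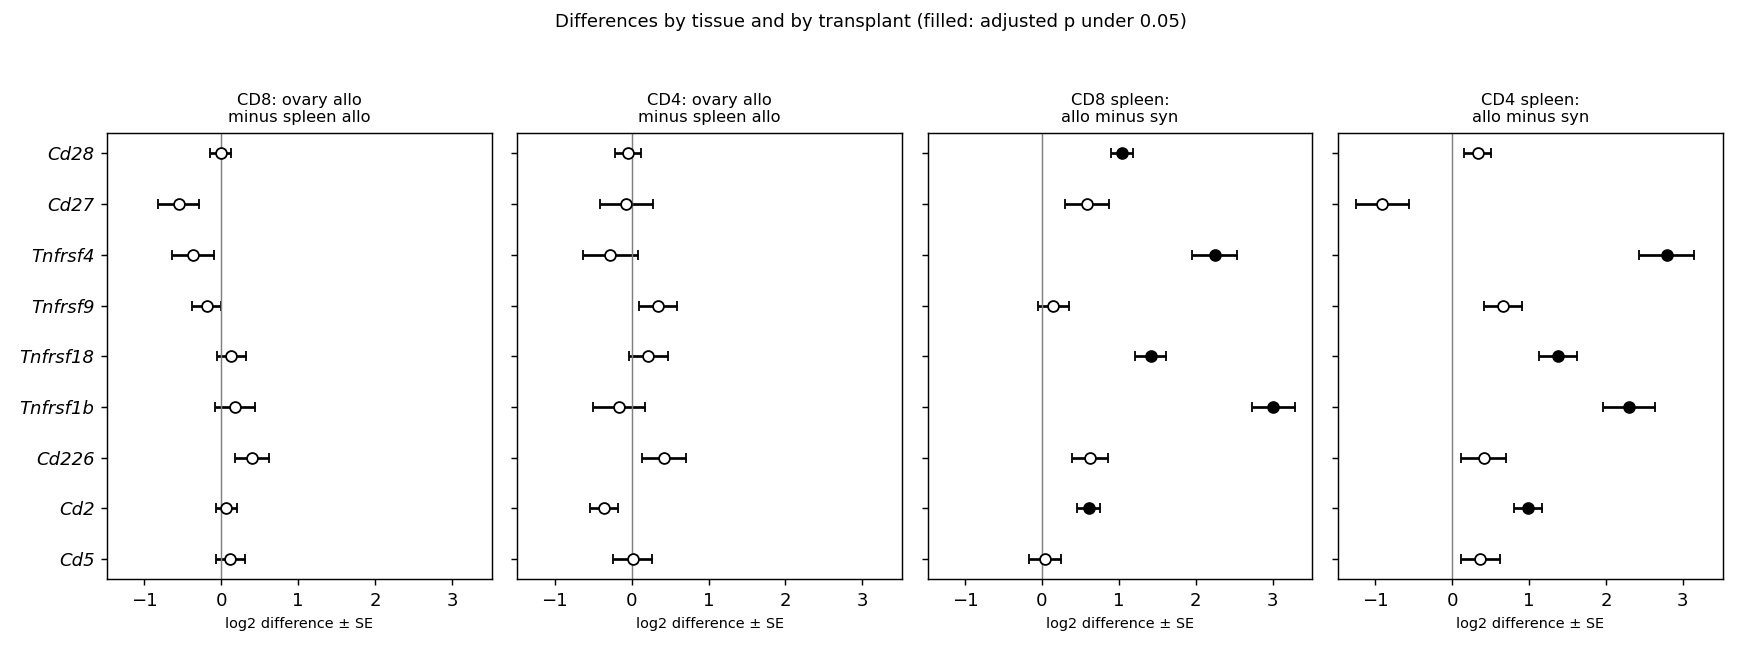
Difference in log2 signal (x axis) for each receptor gene (y axis), by tissue in CD8 and CD4 cells (left pair) and by transplant in splenic CD8 and CD4 cells (right pair). Points are limma estimates, bars their standard errors, and filled points passed an adjusted p of 0.05. The filled points, 5 in CD8 and 4 in CD4 cells, are all in the transplant panels.

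Ovary against spleen asks whether donor T cells in the diseased organ differ from those in spleen of the same kind of transplant. None of the 9 genes was called in CD8 cells by limma, with 0 at an unadjusted p under 0.05, where 0.53% of all features were called. None was called in CD4 cells either, again with 0 at an unadjusted p under 0.05, where 0.906% of all features were called. Differences ran between -0.55 and 0.40 in CD8 cells and between -0.36 and 0.42 in CD4 cells. A p that misses the threshold does not show that the levels are equal.

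The largest CD8 differences were those of Cd27 and Cd226. Cd27 had 2.03, 2.13, 1.92 and 2.11 in ovarian CD8 cells, against 3.18, 2.64 and 1.99 in allogeneic splenic CD8 cells (-0.55 ± 0.27, limma adjusted p = 0.625). The ovarian values lay close together, and the splenic values spread over more than the difference, with the slide 1 arrays high. Within slide 1 the difference was -0.83 and within slide 2 it was 0.03. Cd226 had 3.36, 3.30, 2.93 and 3.33 in ovarian CD8 cells, against 2.84, 2.91 and 2.74 in allogeneic splenic CD8 cells. All ovarian arrays were above all splenic ones, yet the difference of 0.40 ± 0.22 did not pass the test (limma adjusted p = 0.685). It was 0.46 on slide 1 and 0.39 on slide 2.

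No gene of the TNF receptor family passed the test between ovarian and allogeneic splenic CD8 cells. The arrays of the 2 groups overlapped for Tnfrsf4, Tnfrsf18 and Tnfrsf1b. Tnfrsf4 had 4.44, 4.72, 3.87 and 4.63 in ovarian CD8 cells (-0.37 ± 0.27 relative to spleen), Tnfrsf18 5.13, 5.20, 4.97 and 5.29 (0.13 ± 0.19) and Tnfrsf1b 3.17, 3.21, 2.76 and 3.17 (0.18 ± 0.26). The chosen Tnfrsf9 probe had 3.25, 3.28, 3.07 and 3.13 in ovarian CD8 cells, each below the lowest allogeneic splenic CD8 array (-0.19 ± 0.19, limma adjusted p = 0.863). Its other probe had 2.77, 2.68, 2.36 and 2.70 (-0.08 ± 0.27). Foxp3 had -1.26, -1.04, -2.19 and -1.01 in ovarian CD8 cells, all below the allogeneic splenic CD8 arrays, a difference of -1.20 ± 0.34 that did not pass the test (limma adjusted p = 0.212).

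In CD4 cells the groups overlapped for all 9 genes. Cd2 had 7.65 and 7.42 in ovary, against 8.21 and 7.59 in allogeneic spleen (-0.36 ± 0.18, limma adjusted p = 0.368), and Cd226 had 2.12 and 1.86 in ovary, against 2.11 and 1.02 in allogeneic spleen (0.42 ± 0.29, limma adjusted p = 0.54). Tnfrsf9 had 3.78 and 4.05 in ovary, against 3.14 and 4.01 in allogeneic spleen (0.34 ± 0.24, limma adjusted p = 0.556). Without the dim allogeneic splenic CD4 replicate 2, Tnfrsf9 (0.78, limma adjusted p = 0.036) and Cd2 (-0.67, limma adjusted p = 0.0173) passed the test. Tnfrsf4 had 7.79 and 6.88 in ovarian CD4 cells, Tnfrsf18 6.70 and 5.98, Tnfrsf1b 2.93 and 2.27, Cd28 5.37 and 5.28, Cd5 7.18 and 6.68, and Cd27 1.10 and 0.55. Their differences from allogeneic spleen lay between -0.28 and 0.22.

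CD8 against CD4 cells asks which receptors are biased to a subset. Tnfrsf4 and Tnfrsf18 were called lower and Cd226 higher in CD8 cells in each of 3 settings. In the ovary 2 of 9 were called higher in CD8 cells, where 8.47% of all features were, and 4 of 9 lower, where 9.03% were. In allogeneic spleen 2 of 9 were called higher, against 15.2% of all features, and 4 of 9 lower, against 14.3%. In syngeneic spleen 1 of 9 was called higher, against 1.27%, and 3 of 9 lower, against 2.88%. The 3 comparisons share no arrays. Leaving out ovarian CD4 replicate 2 left 3 of 9 called in ovary, and leaving out either syngeneic CD4 replicate left 2 of 9 called in syngeneic spleen.

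Tnfrsf4 had the largest subset difference of the 9 genes in all 3 settings. It was lower in CD8 cells by -2.92 ± 0.31 in ovary (limma adjusted p = 0.000106), -2.82 ± 0.32 in allogeneic spleen (limma adjusted p = 0.00013) and -2.28 ± 0.32 in syngeneic spleen (limma adjusted p = 0.00143). These are signals 7.56-fold, 7.08-fold and 4.87-fold lower in CD8 than in CD4 cells. After allogeneic transplantation, splenic CD8 cells (4.60 to 4.94) stood where syngeneic splenic CD4 cells did (4.49 to 5.16). Tnfrsf18 was lower in CD8 cells by -1.19 ± 0.22 in ovary, -1.10 ± 0.23 in allogeneic spleen and -1.14 ± 0.23 in syngeneic spleen (limma adjusted p = 0.00364, 0.00448 and 0.013), the last call being lost without either syngeneic CD4 replicate. Foxp3 was lower in CD8 cells by -4.52, -3.41 and -4.58 in the same 3 settings. The summed level of the 5 regulatory T-cell markers was 9.15 to 10.8 in ovarian CD8 cells, against 34.6 to 56.4 in ovarian CD4 cells. Its part in these differences was not tested.

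Cd226 was higher in CD8 cells by 1.24 ± 0.25 in ovary (limma adjusted p = 0.00657), by 1.26 ± 0.27 in allogeneic spleen (limma adjusted p = 0.00493), where the 2 CD4 arrays lay far apart (2.11 and 1.02), and by 1.05 ± 0.27 in syngeneic spleen (limma adjusted p = 0.0472). The syngeneic call was lost in 4 of the 5 fits that each left out an array of these groups, and the ovarian call without ovarian CD4 replicate 2 (limma adjusted p = 0.0746). The allogeneic splenic call was kept, but the difference was 0.71 without CD4 replicate 2 (limma adjusted p = 0.0364) and 1.81 without CD4 replicate 1 (limma adjusted p = 0.000348). CD8 levels were above CD4 levels on every array in each setting. Cd27 was higher in CD8 cells by 1.22 ± 0.30 in ovary (limma adjusted p = 0.0175) and by 1.71 ± 0.32 in allogeneic spleen (limma adjusted p = 0.0026). In syngeneic spleen the difference was 0.22 ± 0.32 (limma adjusted p = 0.89). The other Cd27 probe gave 1.13 ± 0.37 in ovary (limma adjusted p = 0.0545) and 1.44 ± 0.39 in allogeneic spleen (limma adjusted p = 0.0169). The ovarian call for Cd27 was lost without ovarian CD4 replicate 2 (limma adjusted p = 0.189), and the allogeneic splenic call of its other probe without CD8 replicate 1, CD8 replicate 2 or CD4 replicate 2 (1.06 without the last, limma adjusted p = 0.143).

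Cd5 had 6.06, 6.08, 5.73 and 6.06 in ovarian CD8 cells, against 7.18 and 6.68 in ovarian CD4 cells (-0.95 ± 0.22, limma adjusted p = 0.0127). In allogeneic spleen it had 6.05, 6.08 and 5.46 in CD8 cells, against 7.12 and 6.70 in CD4 cells (-1.05 ± 0.23, limma adjusted p = 0.00622). In syngeneic spleen the CD8 arrays, 5.96, 5.76 and 5.75, were again below the CD4 arrays, 6.70 and 6.39, without passing the test (-0.72 ± 0.23, limma adjusted p = 0.127); with the slide as a block it passed (-0.66, limma adjusted p = 0.0222). The ovarian call was lost without ovarian CD4 replicate 1 (limma adjusted p = 0.105).

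Cd28 was lower in syngeneic splenic CD8 than CD4 cells by -1.21 ± 0.16 (limma adjusted p = 0.000859), and by -0.50 ± 0.16 in allogeneic spleen (limma adjusted p = 0.0341). The allogeneic call was lost in 4 of 5 fits that each left out an array, and the difference was -0.25 without CD4 replicate 2. In ovary the difference was -0.46 ± 0.15 (limma adjusted p = 0.0533), which passed with the slide as a block (limma adjusted p = 0.0405). The chosen Tnfrsf9 probe was lower in ovarian CD8 cells by -0.74 ± 0.21 (limma adjusted p = 0.0331), a call lost in all 6 fits that each left out an array, while the other probe was higher by 1.19 ± 0.30 (limma adjusted p = 0.019). The probes of Tnfrsf9 thus differed in direction between ovarian CD8 and CD4 cells. In allogeneic spleen the other probe was higher in CD8 cells by 1.66 ± 0.32 (limma adjusted p = 0.00289), and in syngeneic spleen lower by -1.74 ± 0.32 (limma adjusted p = 0.00701). The other probe's ovarian call was lost without ovarian CD4 replicate 2 (0.75, limma adjusted p = 0.251) and its syngeneic call without syngeneic CD4 replicate 2 (-1.14, limma adjusted p = 0.101). Cd2 differed by -0.03, -0.45 and -0.07 and Tnfrsf1b by 0.48, 0.13 and -0.58 in ovary, allogeneic spleen and syngeneic spleen. Neither was called in any of the 3, and the Tnfrsf1b difference in allogeneic spleen was -0.08 after quantile normalization. In allogeneic spleen, the chosen Cd2 probe passed with the slide as a block (-0.47, limma adjusted p = 0.0417). Its difference was -0.76 without CD4 replicate 2, and that of the chosen Tnfrsf9 probe was -0.64 without CD4 replicate 1. The other Cd2 probe had the opposite sign in allogeneic spleen (0.49 ± 0.34, limma adjusted p = 0.293). Without CD8 replicate 3 this other probe passed as higher in CD8 cells (0.86, limma adjusted p = 0.0372). No direction is therefore given for Cd2 as a gene between subsets of allogeneic spleen.

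**Figure D4:**
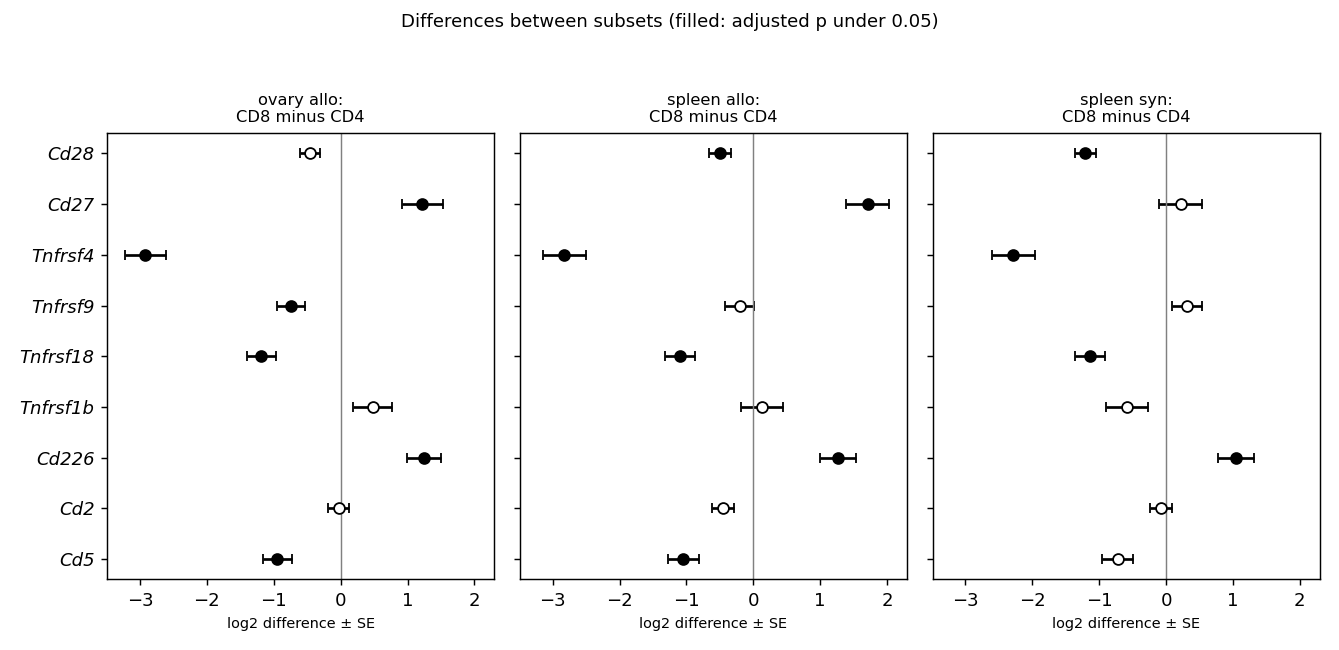
Difference in log2 signal between CD8 and CD4 cells (x axis) for each receptor gene (y axis) in allogeneic ovary, allogeneic spleen and syngeneic spleen. Points are limma estimates, bars their standard errors, and filled points passed an adjusted p of 0.05. Tnfrsf4 and Tnfrsf18 are filled on the negative side and Cd226 on the positive side in all 3 panels.

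Whether the subsets responded differently was tested with interaction terms. For the transplant effect, 0 of 9 genes were called, with 2 at an unadjusted p under 0.05, where 11.9% of all features were called. Those 2 were Cd27, for which the transplant difference was 1.49 ± 0.45 more positive in CD8 than in CD4 cells (limma adjusted p = 0.0516), and Cd28 (0.71 ± 0.23, limma adjusted p = 0.0603). Both stood near the threshold, and with the slide as a block Cd27 passed it (1.36, limma adjusted p = 0.0271) and Cd28 did not (0.69, limma adjusted p = 0.0539). Without allogeneic splenic CD8 replicate 3 both passed it (Cd27 1.80, limma adjusted p = 0.0124, and Cd28 0.77, limma adjusted p = 0.0406). The other Cd27 probe gave 1.24 ± 0.55 over all arrays, which did not pass the test (limma adjusted p = 0.159). It passed without that CD8 replicate (1.61, limma adjusted p = 0.0398). Without syngeneic splenic CD4 replicate 2 Cd27 passed (1.82, limma adjusted p = 0.0499), without allogeneic splenic CD4 replicate 1 Tnfrsf9 (-0.95, limma adjusted p = 0.0238), and without allogeneic splenic CD4 replicate 2 Cd28 (0.95, limma adjusted p = 0.00802) and Cd2 (-0.69, limma adjusted p = 0.0247). The differences for Tnfrsf4 (-0.54 ± 0.46), Tnfrsf18 (0.04 ± 0.32) and Tnfrsf1b (0.71 ± 0.44) did not pass the test. The other Tnfrsf9 probe rose more in CD8 than in CD4 cells by 3.40 ± 0.45 (limma adjusted p = 0.000958). For the tissue effect, 0 of 9 genes were called, with 0 at an unadjusted p under 0.05, and 0% of all features were called, with 2539 at an unadjusted p under 0.05. Without allogeneic splenic CD4 replicate 2, Tnfrsf9 (-0.97, limma adjusted p = 0.0342) and Cd2 (0.73, limma adjusted p = 0.0315) were called.

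Ordered by mean level over the 6 groups, Tnfrsf1b was highest in ovarian CD8 cells (3.08 ± 0.22, SD) and next in allogeneic splenic CD8 cells (2.90 ± 0.53), allogeneic splenic CD4 cells (2.77 ± 0.08) and ovarian CD4 cells (2.60 ± 0.47). Neighbours among these 4 allogeneic groups overlapped, and all lay above syngeneic splenic CD4 (0.47 ± 0.46) and CD8 cells (-0.11 ± 0.24). Tnfrsf4 formed 3 tiers: allogeneic CD4 cells of spleen (7.61 ± 0.39) and ovary (7.33 ± 0.64), then syngeneic splenic CD4 cells (4.82 ± 0.48) with allogeneic CD8 cells of spleen (4.79 ± 0.17) and ovary (4.42 ± 0.38), then syngeneic splenic CD8 cells (2.54 ± 0.21). Neighbours within a tier overlapped and neighbours in different tiers did not. Tnfrsf18 had ovarian CD4 (6.34 ± 0.51) and allogeneic splenic CD4 cells (6.12 ± 0.39) at the top. Below them came ovarian CD8 (5.15 ± 0.13), allogeneic splenic CD8 (5.02 ± 0.20) and syngeneic splenic CD4 cells (4.74 ± 0.08), with syngeneic splenic CD8 cells (3.60 ± 0.16) lowest and apart.

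Cd226 ran from ovarian CD8 cells (3.23 ± 0.20) over allogeneic splenic CD8 (2.83 ± 0.08) and syngeneic splenic CD8 cells (2.20 ± 0.21) down to the CD4 cells of ovary (1.99 ± 0.18), allogeneic spleen (1.57 ± 0.77) and syngeneic spleen (1.15 ± 0.12). The 2 highest groups did not overlap with their neighbours, and the others did. Cd27 was highest in allogeneic splenic CD8 cells (2.60 ± 0.60) and lowest in allogeneic splenic CD4 (0.89 ± 0.09) and ovarian CD4 cells (0.82 ± 0.39), whose arrays stood apart from those of the other groups. Cd28 was lowest in syngeneic splenic CD8 cells (3.83 ± 0.09), and the 3 CD4 groups had the highest means, 5.04 to 5.37.

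Genes with levels most like those of a receptor were found over the 16 arrays as the smallest root mean square difference of log2 levels, each centred on its own mean, among 9749 genes well above background on all arrays. For Tnfrsf18 they were Icos (0.21), Ggt7 (0.30) and Cd44 (0.32), where Tnfrsf18 itself varied by 0.89 around its mean. For Tnfrsf1b (1.33) they were Samsn1 (0.26), H2ac4 (0.30) and H3c13 (0.31), and for Tnfrsf4 (1.69) Podnl1 (0.26), Dhrs3 (0.49) and Tgfb3 (0.58). Cd28 (0.52) was nearest to Psen2 (0.20), Cd27 (0.67) to Gart (0.22), Cd226 (0.75) to Metrn (0.25), Cd2 (0.37) to Ltbp4 (0.15), Cd5 (0.49) to Abhd17c (0.18) and Tnfrsf9 (0.34) to Mms22l (0.08). A gene that varies little has near neighbours for that reason alone, so these distances are not comparable between receptors.

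Among 16 other costimulatory receptors, 13 were measured, and 5 rose and 1 fell in allogeneic over syngeneic splenic CD8 cells (median 0.31, all features -0.16), that is 38.5% and 7.69% of them, where 18.8% and 19.6% of all features were called higher and lower. In CD4 cells 2 rose and 1 fell (median 0.35, all features 0.04), or 15.4% and 7.69%, where 10.4% and 5.7% of all features were called higher and lower. Icos, the inducible relative of CD28, rose by 1.39 ± 0.16 in CD8 cells and 1.43 ± 0.20 in CD4 cells (limma adjusted p = 3.43e-05 and 0.000693). Slamf1, a self-ligand receptor, rose by 2.00 ± 0.16 in CD8 cells (limma adjusted p = 1.78e-06). Cd7 rose by 2.72 ± 0.28 in CD8 cells (limma adjusted p = 1.12e-05) and fell by 1.40 on the log2 scale in CD4 cells (limma adjusted p = 0.0168). None of the 13 was called between ovary and spleen in either subset, where 0.53% (CD8) and 0.906% (CD4) of all features were.

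Of 13 ligands of the 9 receptors, 11 were measured. In allogeneic over syngeneic splenic CD8 cells, 4 were called higher and 4 lower (median -0.34, all features -0.16). These are 36.4% each, where 18.8% and 19.6% of all features were called higher and lower. In CD4 cells 3 were called higher and 2 lower (median -0.24, all features 0.04). That is 27.3% and 18.2%, where 10.4% and 5.7% of all features were called higher and lower. Tnfsf4, the ligand of OX40, was well above background on all 3 allogeneic splenic CD8 arrays and on none of the 3 syngeneic ones, at least 22.7-fold higher (limma adjusted p = 2.09e-06). The bound compares the mean with the faintest signals still well above background. Cd70, the ligand of CD27, was likewise at least 15.2-fold higher in CD8 cells (limma adjusted p = 2.75e-06) and rose by 5.07 ± 0.54 in CD4 cells (limma adjusted p = 0.000118). Tnfsf4 is also among the ligands called higher in CD4 cells (limma adjusted p = 0.032), but at faint signals. There it was well above background on 1 of 2 allogeneic and 0 of 2 syngeneic arrays, and at least 1.20-fold higher. Lta, which encodes a soluble ligand of the TNF receptors, fell by 2.21 in CD8 cells and by 0.89 in CD4 cells on the log2 scale (limma adjusted p = 6.84e-08 and 0.00203). Lta was the only ligand called between tissues, higher in ovary than in spleen by 1.02 ± 0.11 in CD8 cells and 0.86 ± 0.15 in CD4 cells (limma adjusted p = 0.00127 and 0.0241). That is 1 of 11 in each subset, or 9.09%, where 0.53% (CD8) and 0.906% (CD4) of all features were called. Some of these ligands, Cd72 and Icosl among them (named after their values were seen), are expressed by B cells. B-cell markers were also lower in allogeneic spleen, with 5 of 6 called lower in CD8 cells and 3 of 6 in CD4 cells. These are 83.3% and 50%, where 19.6% and 5.7% of all features were called lower. The part of B cells in the list's falls was not tested.

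Of 7 inhibitory receptors that share ligands or partners with the 9, 6 were measured. In allogeneic over syngeneic splenic CD8 cells, 5 rose and 0 fell (median 3.81, all features -0.16). The share called higher was 83.3%, where 18.8% of all features were. In CD4 cells 3 rose and 1 fell (median 1.58, all features 0.04). That is 50% and 16.7%, where 10.4% and 5.7% of all features were called higher and lower. Tigit, which competes with CD226 for ligand, had a mean level of 2.59 in allogeneic splenic CD8 cells, against -3.97 in syngeneic splenic CD8 cells, where 1 of 3 arrays was well above background, and was at least 87.2-fold higher (limma adjusted p = 1.18e-09). In CD4 cells it rose by 4.00 ± 0.22 in CD4 cells (limma adjusted p = 1.45e-06). Pdcd1, which encodes PD-1, rose by 6.18 ± 0.29 in CD8 cells and 2.73 ± 0.35 in CD4 cells (limma adjusted p = 2.2e-08 and 0.0004). Cd160 rose by 3.85 ± 0.39 in CD8 cells (limma adjusted p = 9.78e-06) and was at least 3.27-fold lower in allogeneic CD4 cells, where it was not well above background (limma adjusted p = 0.00673). Ctla4, which shares ligands with CD28, also stands in the regulatory T-cell list. None of the 6 was called between ovary and spleen, where 0.53% (CD8) and 0.906% (CD4) of all features were.

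Downstream, all 24 adaptors and proximal signalling genes were measured, of which 6 rose and 3 fell in allogeneic over syngeneic splenic CD8 cells (median 0.03) and 0 rose and 1 fell in CD4 cells (median -0.08). In CD8 cells these are 25% and 12.5% of the list, where 18.8% of all features were called higher and 19.6% lower. The CD8 counts are therefore not a result about the list. In CD4 cells they are 0% and 4.17%, where 10.4% of all features were called higher and 5.7% lower. Cd2ap, an adaptor that binds the tail of CD2, fell by 2.19 on the log2 scale in CD8 cells (limma adjusted p = 1.49e-06), and was lower in ovarian than in allogeneic splenic CD4 cells by -1.15 ± 0.22 (limma adjusted p = 0.0319). Siva1, which binds CD27, rose by 1.04 ± 0.12, and Ptpn6, a phosphatase known from inhibitory signalling, fell by 1.16 on the log2 scale in CD8 cells (limma adjusted p = 3.07e-05 and 0.000225). Of 20 NF-kappaB pathway genes and targets 19 were measured, with 4 called higher and 2 lower in CD8 cells (median 0.14) and 2 higher and 1 lower in CD4 cells (median 0.41). The shares of that list, 21.1% higher and 10.5% lower in CD8 cells and 10.5% higher and 5.26% lower in CD4 cells, lie near or below those of all features (18.8% and 19.6%, and 10.4% and 5.7%), and they too are no result about the list. Map3k14, the kinase of the non-canonical NF-kappaB pathway, fell by 1.01 in CD8 cells and 0.83 in CD4 cells on the log2 scale (limma adjusted p = 0.000503 and 0.018). Bcl3 rose by 1.87 ± 0.40 in CD8 cells (limma adjusted p = 0.00287) and Nfkbie, an inhibitor of NF-kappaB, by 0.78 ± 0.16 in CD4 cells (limma adjusted p = 0.00582).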

How the data were processed

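The deposited scanner files hold spot intensity in arbitrary units from 16 one-colour arrays. Per the file headers, Agilent Feature Extraction (version 11.5.1.1) subtracted background and spatial trend. Per the labels' protocols, cells were sorted into Trizol and RNA was labelled by a low-input amplification kit. The deposited value table holds log2 numbers that match the scanner signals minus each array's 75th percentile and each probe's median over arrays (Pearson r at least 0.9998, array medians -0.341 to 0.491). Software for that step: not given in the sources used here. The table served as an alternative.

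From the files, log2 processed signal minus the array's 75th percentile was computed, averaging spots of a probe and leaving out outlier spots. Probes were named through RefSeq accessions (assembly GRCm38.p6): 27656 of 55681 matched. The array's own coordinates use another build and are not given. Probes were kept (31122) where at least 1 group had them well above background throughout, and the probe with the highest mean stood for its gene, leaving 22836 features. limma 3.58.1 in R 4.3.3 was fitted with 1 mean per group over 16 arrays (10 residual and 2.16 prior degrees of freedom). Contrasts of groups and 2 interactions were tested, with Benjamini-Hochberg adjustment over all features and calls under 0.05. The fit was tested on simulated data. The number of arrays limits the precision. Arrays of a group correlated at 0.938 to 0.996. All 9 receptors were named in every comparison. From other lists, up to 3 called genes of smallest adjusted p over the tissue and transplant comparisons were named. Macrophage, B-cell, gonadal and regulatory T-cell markers are those given. Other markers (pan T, dendritic, NK, stromal, erythroid) had at most 2 members called in any tissue or transplant comparison. Called between tissues were 1 of 3 stromal markers in each subset (33.3%) and 1 of 6 dendritic ones in CD8 cells (16.7%). Of all features 0.53% (CD8) and 0.906% (CD4) were. By transplant in CD8 cells, 33.3% of stromal, 28.6% of pan T and 25% of NK markers rose (all features 18.8%). There 33.3% of dendritic and 25% of NK markers fell (19.6%). In CD4 cells, 33.3% of stromal and 14.3% of pan T markers rose (10.4%). There 16.7% of dendritic and 25% of NK markers fell (5.7%). Receptors and lists were chosen with earlier results of these data known. Alternatives were other normalizations and filters, probe averaging, slide and replicate blocks, each slide alone, array weights, another variance model, fewer groups and leaving out arrays. Added after seeing the data were the other probes and leaving out the 2 dimmest arrays.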

Additional observations from a re-analysis of the deposited data

Results flagged for a closer look

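In the group of 4 ovarian CD8 arrays, replicate 3 lay far below the others for 3 genes, judged by its gap to the nearest array relative to the group's range (Dixon's test). It had 2.76 for Tnfrsf1b, where the others lay between 3.17 and 3.21, 2.93 for Cd226, where the others lay between 3.30 and 3.36, and 5.73 for Cd5, where the others lay between 6.06 and 6.08. Such a test flags some groups by chance at its 95% level, and 9 genes were examined in this 1 group of 4. Other groups are too small for it. Replicate 3 also had the lowest Foxp3 level of the group, -2.19, and the lowest raw 75th percentile of the group, 190.1 units.

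The transplant effect of the other Tnfrsf9 probe differed between the subsets by the interaction term: the difference of allogeneic from syngeneic spleen was 5.41 in CD8 cells and 2.01 in CD4 cells, larger in CD8 cells by 3.40 ± 0.45 (limma adjusted p = 0.000958). The Tnfrsf9 probe with the higher mean gave -0.51 ± 0.31 for the same term (limma adjusted p = 0.294).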

How the results depend on the processing

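Over the planned settings other than leaving out arrays, 911 of 1053 values of single probes kept their direction and their side of the threshold, 47 lost a call, 39 gained one, 53 uncalled values changed sign and 3 called or newly called values reversed. The 3 were Tnfrsf9 with the mean of both probes: 0.23 in ovarian CD8 against CD4 cells (limma adjusted p = 0.499), 0.73 in allogeneic splenic CD8 against CD4 cells (0.0289) and 1.44 for the transplant interaction (0.0144). Averaging probes that differ in direction is what that setting does. Leaving out each array, 442 of 522 values kept their direction and side and 0 reversed. In the counts of receptor genes called that moved by over 1.5 times, the cause was not tested. For ovary against spleen in CD8 cells, array weights gave 3 (Cd27, Tnfrsf1b, Cd226); in CD4 cells normexp with quantile normalization gave 1 (Cd226) and leaving out an array 0 to 2. For allogeneic against syngeneic spleen, slide 2 alone gave 1 in CD8 cells and 0 in CD4 cells, and only the groups compared gave 0 in CD4 cells. For CD8 against CD4 cells, slide 2 alone gave 0 in all 3 settings; leaving out an array gave as few as 3 in ovary (without ovarian CD4 replicate 2) and 2 in syngeneic spleen (without either CD4 replicate); only the groups compared gave 1 in allogeneic spleen; slide 1 alone gave 2 in syngeneic spleen. For the tissue interaction, leaving out allogeneic splenic CD4 replicate 2 gave 2 (Tnfrsf9, Cd2). For the transplant interaction, normexp with quantile normalization, the mean of probes, the slide as a block, slide 1 alone and the replicate block each gave 1; the filter on all 16 arrays, the trended robust variance and leaving out the 2 dimmest arrays each gave 2; leaving out an array gave 0 to 2. The median over all features in splenic CD8 cells, allogeneic against syngeneic, was -0.16 as reported and -0.04 after normexp with quantile normalization. Counts over all features moved by more than 1.5 times in each comparison: for ovary against spleen in CD8 cells 121 as reported, 4236 with array weights and 0 on slide 2 alone; in CD4 cells 207, 2076 on slide 1 alone and 0 with array weights. Leaving out an array gave 49 to 262 and 213 to 1887 in these 2 comparisons. For allogeneic against syngeneic CD8 cells they were 8774 and 1901 on slide 2 alone; in CD4 cells 3678, 6307 on slide 1 alone and 0 on slide 2 alone. For CD8 against CD4 cells the counts were 3997 in ovary, 6721 in allogeneic spleen and 946 in syngeneic spleen, and 27, 23 and 0 on slide 2 alone. The transplant interaction had 2727, and 0 on slide 2 alone, and the tissue interaction 0, and 1542 on slide 1 alone.

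With the slide as a block, 0 of the receptor genes' calls were lost and 6 were gained over 81 values: Cd27 and Tnfrsf9 in allogeneic against syngeneic CD4 cells, Cd28, Cd2 and Cd5 in CD8 against CD4 cells of ovary, allogeneic and syngeneic spleen, and Cd27 in the transplant interaction.

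Whether the replicate numbers pair samples cannot be told from these values. Over 33 pairs of same-numbered samples, correlations of deviations from group means ran between -0.44 and 0.45. All replicate 1 arrays lay on slide 1 and all replicate 3 arrays on slide 2, so number and slide are partly confounded. Same-numbered pairs were not set against differently numbered ones. With the replicate block, Cd226 in CD8 cells (limma adjusted p = 0.0453) and Cd27 in CD4 cells (0.0446) passed the test between allogeneic and syngeneic spleen, and the counts of receptor genes called were 6 and 5 in allogeneic against syngeneic CD8 and CD4 cells, and 6, 5 and 4 in CD8 against CD4 cells of ovary, allogeneic and syngeneic spleen. Signal over background limits the CD4 groups most, whose replicate 2 arrays of ovary and allogeneic spleen had 43.1% and 41.8% of spots well above background.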
